A study of Mus musculus with 6 samples.

Results

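The catalogued circRNAs described here are the exonic circles of 2 to 7 exons in a table of back-spliced reads from mouse aorta that carry an identifier of a public catalogue of circRNAs (mmu_circ_ followed by a number). Members were taken from the identifier, the type, the host gene and the exon number that the deposited table gives for each entry. There were 2220 of them among 10023 entries. The same table holds 4845 exonic circRNAs of 2 to 7 exons without a catalogue identifier, called uncatalogued here, and 217 catalogued circles of 1 exon and 247 of 8 or more exons. The aortas came from male ApoE-/- mice on a C57BL/6 background, which were 6 weeks old when the diets began and ate either a high fat diet (HFD) or a normal chow diet for 12 weeks. Each diet had 3 aortas. All 6 animals lack apolipoprotein E, so both groups are prone to high plasma cholesterol and atherosclerosis, and no aorta of a wild-type mouse is among them. RNA was treated with RNase R, which digests linear RNA, before sequencing, and the whole vessel wall was used. The libraries held 4694, 5621 and 4875 back-spliced reads for the HFD aortas, in the order of their replicate numbers, and 7585, 7142 and 7476 for those on chow.

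A circRNA forms when the spliceosome joins the end of a downstream exon back to the start of an upstream exon, so that the RNA has no free ends and resists exonucleases. Long flanking introns that can pair with each other, and RNA-binding proteins that bring them together, favour this reaction, and most circles share their exons with the messenger RNA of the host gene. In vessels, circRNAs have been studied in smooth muscle cells, endothelial cells and macrophages, and a few of them are known to bind miRNAs or proteins. A circle is recognised by the reads that cross its back-splice junction, which is the quantity counted here.

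Catalogued circles made up about the same part of the back-spliced reads on both diets. Members held 1446, 1894 and 1691 reads in HFD aortas and 2559, 2455 and 2625 in the chow aortas. These were 30.8%, 33.7% and 34.7% of all back-spliced reads on HFD and 33.7%, 34.4% and 35.1% on chow. HFD replicate 1 was the lowest, and the groups overlapped (33.1% ± 2.02 against 34.4% ± 0.688, SD, n = 3 each, two-sided exact permutation test, p = 0.4). Relative to the sequencing depth, member signal was lower on the HFD. In SRPBM, the back-spliced reads divided by the depth of the library, the members summed to 25061, 31411 and 29142 on HFD and to 34718, 33749 and 37610 on chow. No HFD aorta reached the lowest chow aorta (exact permutation test, p = 0.1, and 3 against 3 can give no smaller p). Members held about the same share of the back-spliced reads on both diets, so this lower signal was not particular to them. In bulk tissue, fewer cells of a type and less RNA per cell cannot be told apart.

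More different catalogued circles were seen in the chow aortas, whose libraries were deeper. Members with at least 1 read numbered 641, 672 and 709 in HFD aortas and 908, 832 and 851 in the chow aortas. At 4694 reads, the total of the smallest library, the numbers expected were 641, 620 and 695 on HFD and 708, 674 and 685 on chow. Within the HFD, replicate 3 had more members than the deeper replicate 2. At equal depth the groups overlapped (652 ± 38.7 against 689 ± 17.1, SD, n = 3 each, exact permutation test, p = 0.3). The HFD minus chow difference was -36.8 members. Without HFD replicate 3 it was -58.3 and the groups did not overlap (exact permutation test, p = 0.1). Without HFD replicate 2 it was -20.8 (exact permutation test, p = 0.5). Of the members, 1162 had reads in a single aorta and 110 had reads in all 6. The median was 2 reads over the 6 aortas, 789 members had 1 read in all, and 274 had 10 or more. Reads were concentrated in few circles, with 39.3% of member reads in the 100 most abundant members and 2.64% in the most abundant.

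The mean reads of a catalogued circle were above those of an uncatalogued circle of the same exon numbers in every aorta. The mean number of reads per member was 0.651, 0.853 and 0.762 in HFD aortas and 1.15, 1.11 and 1.18 in the chow aortas. Per uncatalogued circle it was 0.417, 0.459 and 0.385 on HFD and 0.624, 0.580 and 0.593 on chow. Members were higher in 6 of 6 aortas, by 1.56 to 1.99 times, with a mean difference of 0.442 reads ± 0.131 (SD, n = 6, two-sided exact sign-flip permutation test, p = 0.031, the smallest that 6 aortas allow). The median over the 6 aortas was 2 reads for both classes. The table also records some uncatalogued entries in another way. In those given by intron coordinates, 5 of 1323 values above 0 were a single read, against 56.7% of the values of entries given by exon numbers, and the part of this in the difference was not tested. Members also recurred more often. Reads in all 6 aortas were found for 4.95% of the members and 0.929% of the uncatalogued circles, and reads in a single aorta for 52.3% and 80.0%. These shares are descriptions, since circles of the same libraries are not replicates.

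Most members were short circles of coding exons. Their ends matched exon ends of the named transcript (GENCODE vM21, GRCm38) for all 2220. There were 664 members of 2 exons, 541 of 3, 416 of 4, 300 of 5, 180 of 6 and 119 of 7, with median spliced lengths of 311, 403, 510.5, 606, 760.5 and 915 nt. Over all members the median was 468 nt, and lengths ran from 82 to 5913 nt. In 1790 members (80.6%) every base was coding sequence, as in 78.2% of the uncatalogued circles that could be placed on exons. Of the members, 319 held the start codon and 30 held the stop codon. Lengths divisible by 3, which keep the reading frame around the circle, were found for 805 members (36.3%) and 38.9% of those uncatalogued circles. The mean exon number per member read was 3.69, 3.66 and 3.72 in HFD aortas and 3.70, 3.76 and 3.77 in the chow aortas. The HFD aortas were on average lower by less than 0.1 exon and the groups overlapped (3.69 ± 0.0322 against 3.74 ± 0.0359, SD, n = 3 each, exact permutation test, p = 0.2). With entries 1 base apart summed they did not overlap (3.69 ± 0.0336 against 3.76 ± 0.0409, exact permutation test, p = 0.1). Of the exon numbers taken singly, 4-exon members held 15.4%, 13.9% and 15.2% of member reads on HFD and 16.7%, 17.1% and 17.5% on chow. Those groups did not overlap, but the exact permutation test gave p = 0.1 before and 0.4 after adjustment over the 6 exon numbers.

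Long introns flanked the members. The intron before the circle had a median of 11463 bases and the intron after it 8738 bases. The other introns were summarised by their median within each member's transcript, and the median of these values over the members was 2277 bases. The upstream intron was longer than the median other intron of its own transcript for 1910 of 2217 members (86.2%) and the downstream intron for 1932 (87.1%). Uncatalogued circles had this feature too, in 79.5% upstream and 77.5% downstream. Exon 2 was the first exon of 722 members (32.5%), 2 members began in exon 1, and 1 held the last exon. In the 4694 uncatalogued circles that could be placed on the exons of a transcript the medians were 5913 bases upstream and 4791 bases downstream, and 26.1% began in exon 2. For circles that began after exon 2 the median upstream intron was shorter, 7278 bases in 1496 members and 4459 bases in 3461 uncatalogued circles. Over the circles with reads in each aorta, the median upstream intron of the members was 13466, 13313 and 13308 bases in HFD aortas and 11684, 11838 and 13097 bases in the chow aortas, against 6159 to 7556 bases for uncatalogued circles over the 6 aortas. Intron lengths and exon positions are fixed for a circle and many of the same circles were read in several aortas, so the aortas are no replicates here and no test is given. Among the members, those with 10 or more reads had a median upstream intron of 15655 bases and began in exon 2 in 46.7% of cases, against 10369 bases and 27.9% for those with 1 read. The part of the exon 2 share in this difference in intron length was not tested.

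The most abundant member came from Cped1, a gene named for a cadherin-like and an esterase-like domain. mmu_circ_0001447 joins exons 11 to 15 into a circle of 636 nt (chromosome 6, 22132229 to 22145687, forward strand) and had 40, 48 and 46 reads on HFD and 60, 59 and 82 on chow. Allowing for depth these were 50.3 ± 4.76 and 60.2 ± 9.67 normalized reads (SD, n = 3 each), and the groups overlapped (log2 fold change -0.26, standard error 0.21, edgeR adjusted p = 0.69). It does not begin in exon 2. The next in normalized reads share a start. They come from Rasa2, which encodes a GTPase-activating protein that switches off Ras, and both begin in exon 2 behind an intron of 19864 bases. mmu_circ_0001829 ends in exon 5 (394 nt) and had 16, 20 and 16 reads on HFD and 32, 32 and 34 on chow. Its normalized reads were lower in every HFD aorta than in any chow diet aorta, 19.4 ± 0.83 against 29.4 ± 0.215, but the criteria below were not met (log2 fold change -0.60, standard error 0.36, edgeR adjusted p = 0.58). mmu_circ_0001830 ends in exon 4 (317 nt) and had 17, 23 and 13 reads on HFD and 31, 38 and 17 on chow. Chow diet replicate 3 was close to the HFD aortas, so the groups overlapped.

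Values follow for other members among the 12 with the most normalized reads. mmu_circ_0000681 of Lrch3, exons 2 to 6, had 16, 19 and 12 reads on HFD and 24, 27 and 42 on chow. Normalized reads of Lrch3 were lower in all 3 HFD aortas, 17.5 ± 2.58 against 27.8 ± 7.68, with a log2 fold change of -0.66 (standard error 0.38, edgeR adjusted p = 0.58). mmu_circ_0001624 of Mettl9, whose product methylates histidine in proteins, had 14, 18 and 27 reads on HFD and 19, 18 and 33 on chow, and the groups overlapped. mmu_circ_0001605 of Rnf169, a ubiquitin-binding protein at DNA double-strand breaks, had 16, 26 and 15 reads on HFD and 15, 26 and 13 on chow. The raw reads of Rnf169 were nearly alike on both diets although the HFD libraries were shallower, and the normalized reads overlapped (log2 fold change 0.37, standard error 0.43). mmu_circ_0000477 of Tent4a, a noncanonical poly(A) polymerase, had 10, 12 and 9 reads on HFD and 24, 14 and 32 on chow. All 3 HFD aortas were below the chow diet aortas for Tent4a (11.6 ± 0.643 against 20.9 ± 7.61 normalized reads, log2 fold change -0.85, standard error 0.47), short of the criteria, which it met when chow diet replicate 2 was left out (log2 fold change -1.16). mmu_circ_0001166 of Pde5a, the phosphodiesterase that breaks down cyclic GMP in vascular smooth muscle, joins exons 7 to 12 and had 9, 18 and 12 reads on HFD and 23, 20 and 7 on chow. Pde5a overlapped between the diets (log2 fold change -0.07, standard error 0.49). Members of Elf2, an ETS transcription factor, Usp3, a deubiquitinase of histones, and Ankib1, a ubiquitin ligase with ankyrin repeats, had 94, 86 and 84 reads in all, and their groups overlapped. Of the 12 most abundant members, that of Mkln1 alone met the criteria of the diet comparison.

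The back-splice junctions of the leading circles show how the same start can be joined to different ends. Each line gives the last 15 bases of the circle in lower case and its first 15 bases in capitals, read from the transcript on the strand of the gene, and all lie in coding sequence (GRCm38, GENCODE vM21).
Cped1 exons 15 to 11, chr6:22132229-22145687, forward strand: tgcggctttgtacaaCTCTTCCCGTCCAGT
Rasa2 exons 5 to 2, chr9:96591950-96611499, reverse strand: gcagcttgttgtacaATGAAGCAAAAAATT
Rasa2 exons 4 to 2, chr9:96602713-96611499, reverse strand: aattcagaagttcagATGAAGCAAAAAATT
Mkln1 exons 6 to 2, chr6:31418931-31433131, forward strand: aaaaagctgtaaatgGAACATTTTAGTGGA

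Members came from 1454 host genes, of which 984 had 1 member and 27 had 5 or more. A start or an end shared with another member was found for 768 members (34.6%). Rere, which encodes a nuclear corepressor with an atrophin domain, had the most, 13 members with 66 reads. In each aorta they summed to 3, 7 and 12 reads on HFD and 16, 18 and 10 on chow, and 5 of the 13 had 1 read in all. The Rere circles are built from exons 2 to 11 in overlapping combinations, with up to 4 members on the same start and up to 4 on the same end. The most read, mmu_circ_0001305 of exons 8 to 10, had 14 reads. Ash1l, a histone methyltransferase, and Zfp827, a zinc finger protein, had 8 members each with 48 and 43 reads. The pair of Ash1l exons 2 and 3 in mmu_circ_0001147 makes a circle of 5075 nt, and had 2, 2 and 2 reads on HFD and 3, 5 and 6 on chow. Cacna1c, the pore of the L-type calcium channel that drives smooth muscle contraction, had 7 members with 67 reads, 39 of them in mmu_circ_0001511 of exons 2 and 3. That circle had 4, 8 and 4 reads on HFD and 8, 7 and 8 on chow, and the groups overlapped in normalized reads (log2 fold change -0.22, standard error 0.80). It lies between introns of 138577 and 272276 bases. Pik3c2a, a class II phosphoinositide kinase, had 7 members with 25 reads, and 3 of these had 1 read.

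The comparison of the diets asked which circles differ when ApoE-/- mice eat an HFD, and a circle was called when edgeR's quasi-likelihood test gave an unadjusted p below 0.05 with a log2 fold change beyond 1 in either direction. Of the members, 1058 had reads in at least 2 aortas and were tested, and the other 1162 were not. The criteria were met by 24 of the 1058, which is 2.27%, against 4.06% of all 2564 circles tested (104 calls). Higher on the HFD were 6 members (0.567%, against 1.29% of all circles tested) and lower were 18 (1.70%, against 2.77%). Of the uncatalogued circles of 2 to 7 exons, 51 of 970 (5.26%) were called. Normalized reads of the diets did not overlap for 80 members (7.56%, against 6.67% of all tested). With Benjamini-Hochberg adjustment in edgeR 0 members had a p under 0.05, against 4 of all circles tested (0.156%), and 24 members had an unadjusted p under 0.05. DESeq2 also gave 0 members after adjustment, and 8 at an unadjusted p under 0.05. The smallest adjusted p of a member was 0.308. The split of higher and lower calls was 6 and 18 with TMM, 8 and 12 with library size alone and 4 and 4 with DESeq2, which differs from edgeR in its test as well as in its scaling. The median log2 fold change moved alike for members and for all circles tested, from -0.19 and -0.18 to 0.03 and 0.04 with library size alone. With circles that had no read on a diet set to their bound, both TMM medians were 0.00. Without HFD replicate 2, 14 members were called (1.49%, against 2.69% of all circles tested) and without chow diet replicate 2, 47 (5.21%, against 5.64%). Without HFD replicate 1 and without chow diet replicate 3, the members called rose to 26 (2.77%) and 32 (3.57%), while the calls among all circles fell from 104 to 73 (3.30%) and 88 (4.24%). Of the 24, 2 met the criteria whichever aorta was left out, those of Tns3 and Phkb, and 12 had no read on one of the diets.

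Among the lower members without an entry 1 base away, Mkln1 had the most reads. It encodes muskelin, a subunit of a large ubiquitin ligase complex. mmu_circ_0001457, exons 2 to 6 in 605 nt, had 13, 16 and 8 reads on HFD and 21, 37 and 38 on chow. All 3 HFD aortas were below the chow diet aortas in normalized reads, 13.7 ± 3.51 against 28.7 ± 8.09 (SD, n = 3 each), with a log2 fold change of -1.06 (standard error 0.40, edgeR adjusted p = 0.58). The call is at the edge of the criteria and was met in 6 of 13 alternatives. It was lost without HFD replicate 3 (-0.81), chow diet replicate 2 (-0.99) or chow diet replicate 3 (-0.94), and also with DESeq2 (-0.87), library size alone (-0.84), at least 10 reads, and entries 1 base apart summed. mmu_circ_0015075 of Phkb, the beta subunit of phosphorylase kinase, which starts glycogen breakdown, had 0 reads in every HFD aorta and 5, 5 and 6 on chow. With 3 reads over the 3 aortas of a diet taken as the floor, Phkb was at least 4.3-fold lower on the HFD, and it met the criteria in all 13 alternatives. The circle of Vps35l, a subunit of the retriever complex that recycles membrane proteins, had 0 reads on HFD and 8, 4 and 2 on chow. mmu_circ_0013819 was thus at least 3.7-fold lower, and the call was lost without chow diet replicate 1, which left 6 reads, or 2, which left 10, with log2 fold changes of -4.49 and -5.20 against -5.13 in the main fit.

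Several lower members had hosts that work at the cell surface, in Wnt signalling or in the extracellular matrix. mmu_circ_0001529 of Lrp6, a Wnt coreceptor of the LDL receptor family, had 1, 0 and 0 reads on HFD and 6, 6 and 3 on chow. mmu_circ_0001545 of Dact3, an antagonist of Wnt signalling, had 0, 1 and 0 on HFD and 4, 4 and 7 on chow. Each HFD group held 1 read, so the chow diet level was 12.0 times the HFD level with a 95% counting interval of 1.9 to 510 for both Lrp6 and Dact3. The circle of Thsd4, which encodes a protein of fibrillin microfibrils, mmu_circ_0015757, had 1, 6 and 1 reads on HFD and 13, 6 and 13 on chow. HFD replicate 2 and chow diet replicate 2 had equal raw reads, the groups overlapped, and the log2 fold change was -1.68 (standard error 0.85, edgeR adjusted p = 0.58). The call of Lrp6 was lost without HFD replicate 2 (-2.76) or 3 (-2.73) or chow diet replicate 1 (-3.06) or 2 (-3.09), and that of Dact3 without HFD replicate 1 (-2.78) or 3 (-2.76) or chow diet replicate 3 (-2.93), as log2 fold changes. Both were also lost with DESeq2 and with the replicate block, by the p alone, since the log2 fold changes were no smaller (-3.28 and -3.39 against -3.21 for Lrp6, -3.28 and -3.34 against -3.23 for Dact3). Lrp6 met the criteria in 7 of 13 alternatives and Dact3 in 8. Thsd4 met them in 3 of 13, those without HFD replicate 2 (-2.96), without a filter (-1.70) and with entries summed (-1.61).

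Itga8, the alpha 8 integrin subunit found on contractile smooth muscle, had 2 called members from separate parts of the gene. mmu_circ_0000976, exons 21 to 23 (chromosome 2, 12174153 to 12182751, reverse strand), had 0, 6 and 2 reads on HFD and 13, 7 and 18 on chow. The HFD aortas were lower, 2.84 ± 3.06 against 11.3 ± 4.67 normalized reads (log2 fold change -1.92, standard error 0.81, edgeR adjusted p = 0.58). mmu_circ_0009280, exons 7 to 11, had 1, 0 and 0 reads on HFD and 4, 5 and 6 on chow, without overlap. The first call was lost in 4 of the 6 fits that left out 1 aorta (HFD replicate 1 or any chow diet replicate) and the second in 3 (HFD replicate 2 or 3, or chow diet replicate 3). In those fits the log2 fold change was -2.23 to -1.34 for the first and -3.08 to -2.72 for the second. DESeq2 ended both and the replicate block the second with log2 fold changes about as large, -1.82 for the first and -3.28 and -3.32 for the second, whose main value was -3.20. The first circle is 254 nt long, all coding, and is printed from its first to its last base, with the last base in capitals because the entry 1 base away lacks it: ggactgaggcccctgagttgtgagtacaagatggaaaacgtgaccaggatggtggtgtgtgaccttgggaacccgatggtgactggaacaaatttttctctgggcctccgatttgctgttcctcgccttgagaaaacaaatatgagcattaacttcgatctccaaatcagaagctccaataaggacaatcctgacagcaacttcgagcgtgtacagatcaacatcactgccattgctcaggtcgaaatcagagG

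Of the higher members, that of Abca1 was read most. Abca1 encodes the transporter that passes cholesterol from cells, macrophage foam cells included, to apolipoprotein A-I. mmu_circ_0011676, exons 3 to 5 (chromosome 4, 53127597 to 53133015, reverse strand, 355 nt), had 6, 13 and 4 reads on HFD and 4, 0 and 1 on chow. The HFD aortas were above the chow diet aortas in normalized reads, 8.34 ± 4.33 against 1.52 ± 1.93, with a log2 fold change of 2.38 (standard error 1.00, edgeR adjusted p = 0.58). The call was lost without HFD replicate 2 (1.82), chow diet replicate 2 (1.82) or chow diet replicate 3 (2.13). A longer Abca1 circle that contains it, mmu_circ_0011675 of exons 2 to 7, had 2, 3 and 3 reads on HFD and 1, 1 and 0 on chow. Its normalized reads did not overlap either, and it was not called (ratio 4.99, 95% counting interval 0.99 to 48). Antxr2, a receptor that binds collagen VI and anthrax toxin, had 0, 4 and 3 reads in mmu_circ_0012888 on HFD and 0 on chow, at least 2.9-fold higher. Zhx1, a zinc finger and homeobox protein, had 0, 3 and 3 reads in mmu_circ_0005710 against 0, at least 2.5-fold higher. HFD replicate 1 was at 0 for both, so the groups overlapped. Leaving out any chow diet replicate ended both calls although the log2 fold changes hardly moved (4.38 to 4.41 against 4.43 for Antxr2, 4.17 to 4.21 against 4.24 for Zhx1), and DESeq2 and the replicate block ended them too (4.09 and 4.21 for Antxr2, 3.89 and 4.0 for Zhx1). Testing without a filter ended the call of Zhx1 alone (4.23). Neither circle was tested without HFD replicate 2 or 3.

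The table holds 2 entries that differ by 1 base for 255 members (11.5%). Each of these members has a second entry with the same chromosome, strand and end that starts 1 base later, and in all 255 pairs that entry is uncatalogued and its flanking introns are given by coordinates, where 2214 of the 2220 members have exon numbers. Whether the entries of a pair are the same molecule was not tested, and the summed values below treat them as 1 circle. In a given aorta the reads were nearly always under 1 of the entries. Among 1530 combinations of pair and aorta, 589 had reads under the member alone, 334 under the other entry alone and 3 under both. Where a member of a pair had 0 reads, the other entry had reads in 35.6% of cases. The other entry held 56.1%, 41.1% and 41.3% of the reads of the pairs in HFD aortas and 44.0%, 44.0% and 29.8% in the chow aortas. The groups overlapped (46.2% ± 8.59 against 39.3% ± 8.18, SD, n = 3 each, exact permutation test, p = 0.6). No member of a pair had reads in all 6 aortas as deposited, and 40 did when both entries were summed. In 68 pairs, reads of the member came from a single diet and those of the other entry from the other diet alone.

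Gigyf2, a translational repressor, is among the pairs with the most reads. Its member mmu_circ_0000057, exons 4 to 8, had 0, 8 and 6 reads on HFD and 27, 0 and 18 on chow. The other entry, circRNA4510, had 17, 0 and 0 reads on HFD and 0, 19 and 0 on chow, that is, reads exactly in the aortas where the member had none. Summed, Gigyf2 had 17, 8 and 6 reads against 27, 19 and 18, and its log2 fold change moved from -1.37 (edgeR adjusted p = 0.58), a call, to -0.64 (standard error 0.45, adjusted p = 0.61), no call. Tmem164 on chromosome X shows the same alternation. Its member mmu_circ_0001894 had 9, 0 and 11 reads on HFD and 6, 19 and 0 on chow, and circRNA6074 had 0, 13 and 0 and 0, 0 and 12. The sums of 9, 13 and 11 against 6, 19 and 12 leave no aorta without reads. For Dennd1b, a guanine nucleotide exchange factor for Rab GTPases, the member mmu_circ_0000081 of exons 4 to 9 had 0, 5 and 0 reads on HFD and 0 on chow and was not tested, while circRNA2538 had 0 on HFD and 4, 5 and 5 on chow. Read singly the entries point to opposite diets. The sum was 1.70 ± 2.94 normalized reads on HFD and 4.13 ± 0.528 on chow, with overlap (log2 fold change -1.12, standard error 1.05, edgeR adjusted p = 0.88).

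The junctions of 3 pairs show the single base that separates the entries. The first line of each pair is the catalogued entry and the second is the entry that starts 1 base later, with the first 15 bases of the circle in capitals as above. The second lines were derived from the deposited coordinates and not from reads, so they do not show that a base is missing from the RNA. By those coordinates the first base of the circle is left out on the forward strand (Gigyf2, Dennd1b). On the reverse strand it is the last base (Tns3).
Gigyf2, chr1:87364104-87380008: gaagaaaagatgtagGCTCCGTGCTCTGTC
Gigyf2, chr1:87364105-87380008: gaagaaaagatgtagCTCCGTGCTCTGTCC
Dennd1b, chr1:139040000-139062971: agcaaattaagcactGAAGTTCTGCAGAGC
Dennd1b, chr1:139040001-139062971: agcaaattaagcactAAGTTCTGCAGAGCG
Tns3, chr11:8478225-8479665: tgcacaaaggtcgagGTGATGACCCCATTG
Tns3, chr11:8478226-8479665: ttgcacaaaggtcgaGTGATGACCCCATTG

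Of the 24 calls, 12 were among the 159 tested members of such pairs (7.55%) and 12 among the 899 tested members without one (1.33%). Of the 12 in pairs, 2 were still called with both entries summed. Those were mmu_circ_0000976 of Itga8, whose summed log2 fold change was -1.39 (standard error 0.67, edgeR adjusted p = 0.61), and mmu_circ_0001026 of Stk39, a kinase that regulates cation chloride cotransporters. The member of Stk39 had 0 reads on HFD and 0, 4 and 5 on chow, and its other entry had 2 reads in chow diet replicate 1, so the sum was above 0 in each chow diet aorta and in no HFD aorta. For the member of Tns3, a tensin of focal adhesions, 8, 3 and 4 reads on the HFD stood against 0 on chow, where the other entry had 3, 3 and 0. Summed, Tns3 had a log2 fold change of 1.65 (standard error 0.95, edgeR adjusted p = 0.61) and was not called. Erbin, an adaptor of ErbB receptors, had 2, 8 and 0 reads in mmu_circ_0000495 on HFD and 10, 30 and 6 on chow, and the other entry had 15 reads in HFD replicate 3, which took its log2 fold change from -1.91 to -0.51. The other calls lost in pairs were members of Gpatch2l (-0.17 when summed), Eri3 (-0.76), Tasp1 (-0.92), Nab1 (-0.84), Acap2 (-2.01), Rnf13 (1.78) and Sos1 (1.52). Outside the pairs, Mkln1, which has no second entry, slipped just under the cut on the fold change in the same fit (-1.0 against -1.06). With all pairs summed, 23 of 1154 members (1.99%) met the criteria, against 3.40% of all 2646 circles tested, and 13 of these were among the 24. The 10 called after summing alone were chosen by that result, and 8 of them are in pairs. The member of Nupl1, a nucleoporin, then had 4, 5 and 1 reads on HFD and 0 on chow, and a Rnf13 circle of 5 exons, mmu_circ_0010726, had 0, 1 and 0 against 7, 3 and 6.

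Lists of host genes gave few members. Of 32 smooth muscle genes, 9 hosted 23 members with 197 reads, which summed to 485, 315 and 259 SRPBM on HFD and 611, 440 and 831 SRPBM on chow. The diets overlapped. In this list 15 members were tested, 0 were called higher and 2 lower, both in Itga8, where 1.29% of all circles tested were called higher and 2.77% lower, and the median log2 fold change was -0.54, or -0.22 with members without reads on a diet at their bound, against -0.18 and 0.00 over all circles tested. Acta2 and Myh11, which define smooth muscle, had entries that are not members, and Tagln and Cnn1 had none, so the contractile markers themselves are hardly seen among catalogued circles. A gene can be expressed without making a circle.

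Markers of other cell types were nearly absent among the members. The 12 endothelial genes gave 1 member, a Tek circle with 1 read in HFD replicate 3, and the 28 macrophage and leukocyte genes gave 1, an Ikzf1 circle with 2 reads in HFD replicate 2. Neither was tested. Cdh5, Kdr and Cd68 had no entry, and Pecam1, Ptprc and Adgre1 had entries that are not members. The 21 adipocyte genes gave 1 member, of Pparg, with 3 reads, and the 18 skeletal muscle genes gave 0. Among 11 cardiac muscle genes, Ryr2 had 3 members and Slc8a1 had 1, with 10 reads in all. Of these, 0, 1 and 0 fell in HFD aortas and 3, 3 and 3 in the chow aortas, and 0 of 2 tested were called. The 22 fibroblast and extracellular matrix genes gave 3 members, 2 of them tested and 0 called. Of all circles tested, 1.29% were called higher and 2.77% lower, so 0 of 2 in either list says little. The member of Ltbp1, which tethers latent TGF-beta to the matrix, mmu_circ_0007013, had 2, 2 and 4 reads on HFD and 11, 6 and 8 on chow. The groups did not overlap in normalized reads, 3.07 ± 1.54 against 7.53 ± 2.40, and the log2 fold change was -1.28 (standard error 0.92, edgeR adjusted p = 0.58), short of the criteria, which Ltbp1 met when chow diet replicate 2 was left out (-1.50). The part of cell composition in the lower Itga8 and Ltbp1 reads was not tested.

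Cholesterol genes and hosts of well known circles were also looked up. Of the 28 genes on the cholesterol handling list, 3 hosted 7 members, namely Abca1, Lrp6 and Acat1. The paper assayed Acat1 among genes related to foam cell formation, and its part in cholesterol handling was not examined here. Of the 7 members, 3 were tested, 1 was called higher (Abca1) and 1 lower (Lrp6), beside the same 1.29% and 2.77% of all circles tested. Members of Abca1, Lrp6 and Acat1 together had 9, 16 and 10 reads on HFD and 11, 7 and 8 on chow. Allowing for depth these were 156, 265 and 172 SRPBM on HFD and 149, 96 and 115 SRPBM on chow. In this sum, which was not tested, the HFD aortas were above the chow aortas. It rests on Abca1, not on the list as a whole. Of the reads, mmu_circ_0011676 of Abca1 held 6, 13 and 4 on HFD and 4, 0 and 1 on chow. The other Abca1 member had 2, 3 and 3 against 1, 1 and 0. The called Lrp6 circle went the other way, with 1, 0 and 0 against 6, 6 and 3. Of 35 host genes of widely studied circRNAs, 22 hosted 45 members with 334 reads. Of the 27 tested, 0 were called higher and 1 lower, that of Lrp6 again, beside 1.29% and 2.77% of all circles tested, and the median log2 fold change was -0.60, or 0.00 with bounds. The most read after Ankib1 were mmu_circ_0000372 of Strn3, a striatin of a phosphatase complex, with 5, 7 and 3 reads on HFD and 7, 7 and 3 on chow, and mmu_circ_0001431 of Pan3, a deadenylase subunit, with 6, 2 and 4 against 4, 7 and 2. Both overlapped. Hipk3, Foxo3 and Fbxw7 had no member. Among 15 factors that take part in circRNA formation, Mbnl1 and Qk hosted 1 member each, and 0 of the 2 were called, beside 1.29% called higher and 2.77% lower of all circles tested. Mbnl1, a splicing factor that promotes a circle from its own transcript, had 3, 7 and 0 reads in mmu_circ_0010743 on HFD and 3, 1 and 2 on chow, and the groups overlapped.

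Seed matches in the members were counted for 3 miRNAs that the study assayed. The mature sequences are from RefSeq (GRCm38.p6) with the seed, bases 2 to 8, in capitals.
mmu-miR-17-5p: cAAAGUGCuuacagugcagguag
mmu-let-7b-5p: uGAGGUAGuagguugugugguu
mmu-miR-212-5p: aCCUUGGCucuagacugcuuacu
The site for miR-17-5p, GCACTTT, was found around the circle, junction included, in 104 of 2220 members (4.68%) and in 189 of 4694 uncatalogued circles (4.03%), or 0.0831 and 0.0721 sites per kb. The site for let-7b-5p, CTACCTC, was in 4.55% of members and 4.90% of uncatalogued circles, and that for miR-212-5p, GCCAAGG, in 7.70% and 8.07%. Members thus held these sites about as often as uncatalogued circles, and no member had more than 2 exact seed matches for miR-17-5p. The members with 2 included mmu_circ_0000154 of Akap7, a kinase-anchoring protein, with 51 reads, and among the named members Dennd1b, Sos1, Gigyf2 and Zhx1 had 1 each. The paper describes more binding sites for miR-17-5p in the Dennd1b circle, and how those relate to exact seed matches was not tested. For binding it also reports an RNA pull-down, and changes of miR-17-5p when the circle was overexpressed or knocked down. A match is a description of the sequence and does not show binding.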

How the data were processed

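The sample labels put 6 aortas into 2 diets of 3, and each aorta gave 1 library of back-spliced reads. The authors used Cutadapt for trimming, TopHat-Fusion on the unmapped reads, and both CIRCexplorer and CIRI to assemble circles. Versions, the genome build and how the callers' output was joined are not given in the sources used here. Coordinates are given for GRCm38 because the ends of all 2220 members are exon ends of GENCODE vM21. The deposited counts are back-spliced reads per entry, without normalization. The deposited signal is SRPBM, the count divided by 1 constant per library and scaled. The deposited table also holds the authors' fold changes, p-values and q-values, which were not used, and its exon number and coordinates were used as given.

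The members and the host gene lists were chosen with earlier results of these data known. Counts were normalized with TMM and fitted over the whole table by the quasi-likelihood method of edgeR 4.0.16 in R 4.3.3, leaving out entries read in fewer than 2 aortas. Adjusted p-values are Benjamini-Hochberg over all 2564 entries tested. Normalized reads are counts over the effective library size, times its mean. Where a diet had 0 reads, the fold change is a bound against 3 reads over the 3 aortas. Where a diet had 1 to 3 reads, or a ratio is given, its 95% interval is an exact binomial interval of the reads. Both cover counting error only. A single value per aorta was tested by exact permutation, two-sided (scipy 1.17.1). The alternatives were DESeq2 1.42.0, library size alone, the authors' depth, no filter, at least 10 reads, the replicate number as a block, each aorta left out, and entries 1 base apart summed. The fits were tested on simulated counts. Between libraries of the same diet, member reads had a chi-square of 1.55 to 2.14 per degree of freedom, above sampling noise.

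The named members are the 12 with the most normalized reads, those with an adjusted p under 0.05, up to 6 calls per direction without overlap, mmu_circ_0000081 and mmu_circ_0015075, up to 3 per host gene list with at least 5 reads, the 5 hosts with the most members, and the entries 1 base away from any of them. The other calls, Tmem164, Nupl1, mmu_circ_0010726 and mmu_circ_0000154 were named after their values were seen. Transcripts of GENCODE vM21 gave the circle sequences. The mRNA libraries were not analysed here.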

Additional observations from a re-analysis of the deposited data

How the results depend on the processing

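At the criteria, 24 members were called (2.27% of those tested, against 4.06% of all circles tested). DESeq2 called 8 (0.756% against 0.897%), the filter of at least 10 reads 12 (4.38% against 8.06%) and the replicate block 9 (0.851% against 1.17%). Library size alone called 20 (1.89% against 3.24%), the authors' depth 24 (2.27% against 4.10%), no filter 23 (1.04% against 0.928%) and summed entries 23 (1.99% against 3.40%). Of these, 7 of the 8, 11 of the 12, 9 of the 9, 18 of the 20, 23 of the 24, 21 of the 23 and 13 of the 23 were among the 24. The fits that left out 1 aorta called 14 to 47 (1.49% to 5.21%, against 2.63% to 5.64% of all circles tested), of which 5 to 13 were among the 24. Fewer entries were tested with at least 10 reads, and the cause of the other differences was not tested. Same-numbered aortas are different mice, and their deviations from the diet means had correlations of -0.15, -0.15 and -0.05 over 200 entries, so the paired fit rests on a shared number alone.

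The HFD minus chow diet difference kept its sign in each alternative run for the share of reads in members, the summed signal, the members detected and the mean exon number. Without 1 aorta these ranged from -2.16 to -0.22 percentage points, -8258 to -5083 SRPBM, -58.3 to -20.8 members and -0.076 to -0.039 exons. The diets overlapped in the mean exon number as deposited and did not with entries summed. The difference in reads per entry between catalogued and uncatalogued circles was 0.442 as deposited and 0.536 with entries summed.

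For the named members, 392 values under an alternative stayed on the same side of the criteria, 130 no longer met them, 2 newly met them and 0 changed the sign of a called value. Over the alternatives, adjusted p-values of the 24 calls ran from 0.101 to 0.999. The median called member held 16 reads in all.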
